A study of Mus musculus with 12 samples.

Results

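The genes described here are 10 regulators of pre-mRNA splicing, *Rsrp1*, *Clk1*, *Clk4*, *Srsf2*, *Srsf3*, *Srsf5*, *Srsf6*, *Srsf7*, *Luc7l3*, and *Pnisr*, out of 49585 genes counted in the mouse adrenal cortex. *Rsrp1* was chosen by its CPM values (read counts scaled to the TMM-normalized library size), which were higher in mice given icosapent ethyl than in mice on the same diet without it. The other 9 are listed with it as splicing genes. Bulk RNA was sequenced from 12 male mice, each as 1 library, in 3 groups of 4. All mice were 6 weeks old at the start and were fed for 20 weeks. The low-fat diet (LFD) group is labelled as normal diet, and its mice carry the numbers 2, 5, 6, and 7. The high-fat diet (HFD) group has mice 1 to 4, and so has the third group, which received the HFD with icosapent ethyl (IPE), the ethyl ester of eicosapentaenoic acid, during the last 10 weeks. The genotype field of every sample reads *Fads2*-/-, while wild-type C57BL/6J mice are described in the methods of the study. *Fads2* stood between 451.8 and 2182 CPM in every mouse.

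Splicing regulators of this kind sit in nuclear speckles and act on each other. SR proteins (the *Srsf* genes) bind exonic enhancers through an RNA recognition motif and recruit the spliceosome through a domain rich in arginine and serine. CLK1 and CLK4 are kinases that phosphorylate this domain and release SR proteins from speckles. Many of these genes limit their own output, because their transcripts can include a poison exon that leads to nonsense-mediated decay or keep an intron and stay in the nucleus. LUC7L3 is a homologue of the yeast U1 snRNP protein Luc7, PNISR is a speckle protein that interacts with the SR-related protein pinin, and RSRP1 is named for its arginine- and serine-rich domain. The annotation labels transcripts as decay targets or as retaining an intron, and neither poison exons nor nuclear retention was looked at. A transcript labelled as a target of nonsense-mediated decay was annotated for 9 of the 10 genes, all but *Rsrp1*, against 27.0% of the 14379 protein-coding genes with enough counts for testing. A retained-intron transcript was annotated for 9 of the 10, all but *Pnisr*, against 56.3% of those genes. The 10 genes also had more annotated transcripts, with a median of 10 against 5. The deposited values are 1 count per gene, so productive, decaying, and intron-retaining transcripts of a gene were counted together.

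RefSeq promoter sequences (assembly GRCm38.p6) matched 8 of the 10 genes, the exceptions being *Clk1* and *Pnisr*. The 250 bases before the RefSeq start site are shown for *Rsrp1*, *Srsf3*, and the pairs *Srsf2* with *Srsf7* and *Srsf5* with *Srsf6*. *Srsf3* had the lowest adjusted p of the genes tested here, and the pairs moved together from mouse to mouse. The windows of *Rsrp1*, *Srsf3*, *Srsf7*, and *Luc7l3* reach into the gene as annotated by GENCODE, and that of *Clk4* lies inside it. The bases are written 5′ to 3′ on the strand of the gene. Capitals mark matches, on either strand, to 6 short motifs whose letters are given after the sequences. Neighbouring or overlapping matches run into 1 stretch of capitals.
Rsrp1, chr4:134923375-134923624, plus strand: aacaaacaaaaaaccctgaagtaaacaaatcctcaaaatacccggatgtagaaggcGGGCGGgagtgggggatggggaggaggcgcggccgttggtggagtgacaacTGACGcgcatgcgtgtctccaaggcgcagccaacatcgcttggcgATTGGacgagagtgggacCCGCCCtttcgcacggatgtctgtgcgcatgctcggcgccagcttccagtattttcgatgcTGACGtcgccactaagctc
Srsf3, chr17:29032410-29032659, plus strand: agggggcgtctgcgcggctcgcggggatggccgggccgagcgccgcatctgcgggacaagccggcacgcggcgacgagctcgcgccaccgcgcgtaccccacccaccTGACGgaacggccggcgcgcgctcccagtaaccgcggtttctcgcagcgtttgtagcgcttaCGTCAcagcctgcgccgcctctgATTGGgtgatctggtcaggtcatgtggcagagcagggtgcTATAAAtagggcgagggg
Srsf2, chr11:116853095-116853344, minus strand: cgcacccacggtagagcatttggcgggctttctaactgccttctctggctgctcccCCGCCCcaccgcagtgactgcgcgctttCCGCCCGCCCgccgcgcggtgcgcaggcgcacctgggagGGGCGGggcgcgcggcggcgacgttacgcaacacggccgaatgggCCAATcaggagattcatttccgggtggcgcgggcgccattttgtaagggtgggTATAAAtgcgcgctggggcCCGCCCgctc
Srsf7, chr17:80207306-80207555, minus strand: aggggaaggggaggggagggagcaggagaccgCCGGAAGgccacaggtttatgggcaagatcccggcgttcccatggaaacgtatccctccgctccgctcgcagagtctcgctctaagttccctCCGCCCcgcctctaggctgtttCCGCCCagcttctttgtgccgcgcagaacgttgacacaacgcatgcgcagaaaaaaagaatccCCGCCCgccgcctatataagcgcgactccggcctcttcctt
Srsf5, chr12:80945249-80945498, plus strand: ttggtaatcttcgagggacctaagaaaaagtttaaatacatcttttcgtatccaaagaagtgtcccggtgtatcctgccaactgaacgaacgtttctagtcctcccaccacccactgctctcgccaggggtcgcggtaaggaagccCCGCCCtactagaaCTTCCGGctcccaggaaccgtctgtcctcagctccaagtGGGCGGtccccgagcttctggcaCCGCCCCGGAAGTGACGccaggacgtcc
Srsf6, chr2:162931258-162931507, plus strand: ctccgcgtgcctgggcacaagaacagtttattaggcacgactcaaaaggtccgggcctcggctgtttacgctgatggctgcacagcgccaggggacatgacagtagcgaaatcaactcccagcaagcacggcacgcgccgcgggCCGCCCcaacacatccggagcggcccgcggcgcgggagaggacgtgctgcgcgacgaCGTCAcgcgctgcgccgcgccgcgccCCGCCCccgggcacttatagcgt

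The core of the cAMP response element, TGACG, was present in 5 of the 8 promoters, those of *Rsrp1*, *Clk4*, *Srsf3*, *Srsf5*, and *Srsf6*, against 17.8% of 32851 mouse promoters of the same length. *Rsrp1* had 2 matches and *Clk4* had 3, of which 2 overlap on opposite strands in 1 stretch, TGACGTCA. A GC box, GGGCGG, was present in all but *Srsf3*, so in 7 of 8, against 32.7%. The 8 promoters had 56.8% to 69.6% G and C against a median of 52.4% over all promoters. The letters CCAAT occurred in *Rsrp1*, *Srsf2*, and *Srsf3* (33.9% of all promoters). A TATA box, TATAAA, occurred in *Srsf2* and *Srsf3* (12.4% of all promoters). An ETS site, CCGGAAG, was found in *Srsf5* and *Srsf7* (6.91%), and in *Srsf5* an ETS site, a GC box, and the cAMP element core adjoin or overlap in 1 stretch. None of the 8 held the E-box CACGTG (6.02%). *Srsf2* and *Srsf7*, the closest pair in expression, shared the GC box and no other of the 6 motifs. *Srsf5* and *Srsf6* shared the GC box and the cAMP element core. These matches describe letters in a window and are not measured binding.

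The total count per mouse was lowest at 34785979 and highest at 67295963, both in the IPE group, and TMM factors lay between 0.883 and 1.14. Markers of adrenocortical cells were abundant in every mouse (*Star* 6842 to 36157 CPM, *Cyp11a1* 4966 to 11004 CPM). Markers of chromaffin cells, the catecholamine-producing cells of the medulla, were present too, and none of the 12 was at 0 in any mouse. Their summed level ranged from 6417 to 22617 CPM in LFD mice, from 3095 to 9998 CPM in HFD mice, and from 5542 to 10990 CPM in IPE mice. In bulk tissue, a change in the share of a cell type and a change in RNA per cell cannot be told apart. The labels do not give extraction or sequencing batches.

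All 10 genes had enough counts in all 3 comparisons, from a lowest count of 411 (*Pnisr*) to a highest of 10773 (*Srsf2*) per mouse. Compared per kilobase of annotated exon, *Srsf2* was the most abundant with 53.5 CPM per kilobase over the 12 mice, followed by *Srsf7* with 33.7, *Srsf6* with 26.6, *Srsf5* with 24.6, and *Srsf3* with 22.1. *Rsrp1* came next with 16.8. Below it were *Luc7l3* with 5.10, the kinases *Clk1* with 4.003 and *Clk4* with 2.93, and *Pnisr* with 1.23. Neighbours in this order from *Srsf7* to *Rsrp1*, and from *Luc7l3* to *Clk4*, differed by less than the SD of 1 of the neighbours in at least 1 group, so by this spread between mice their order is not settled. Within mice, *Srsf3* was below *Rsrp1* only in LFD mouse 2, and *Clk1* below *Clk4* only in HFD mouse 4. The other neighbours were not compared within mice.

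**Figure D1:**
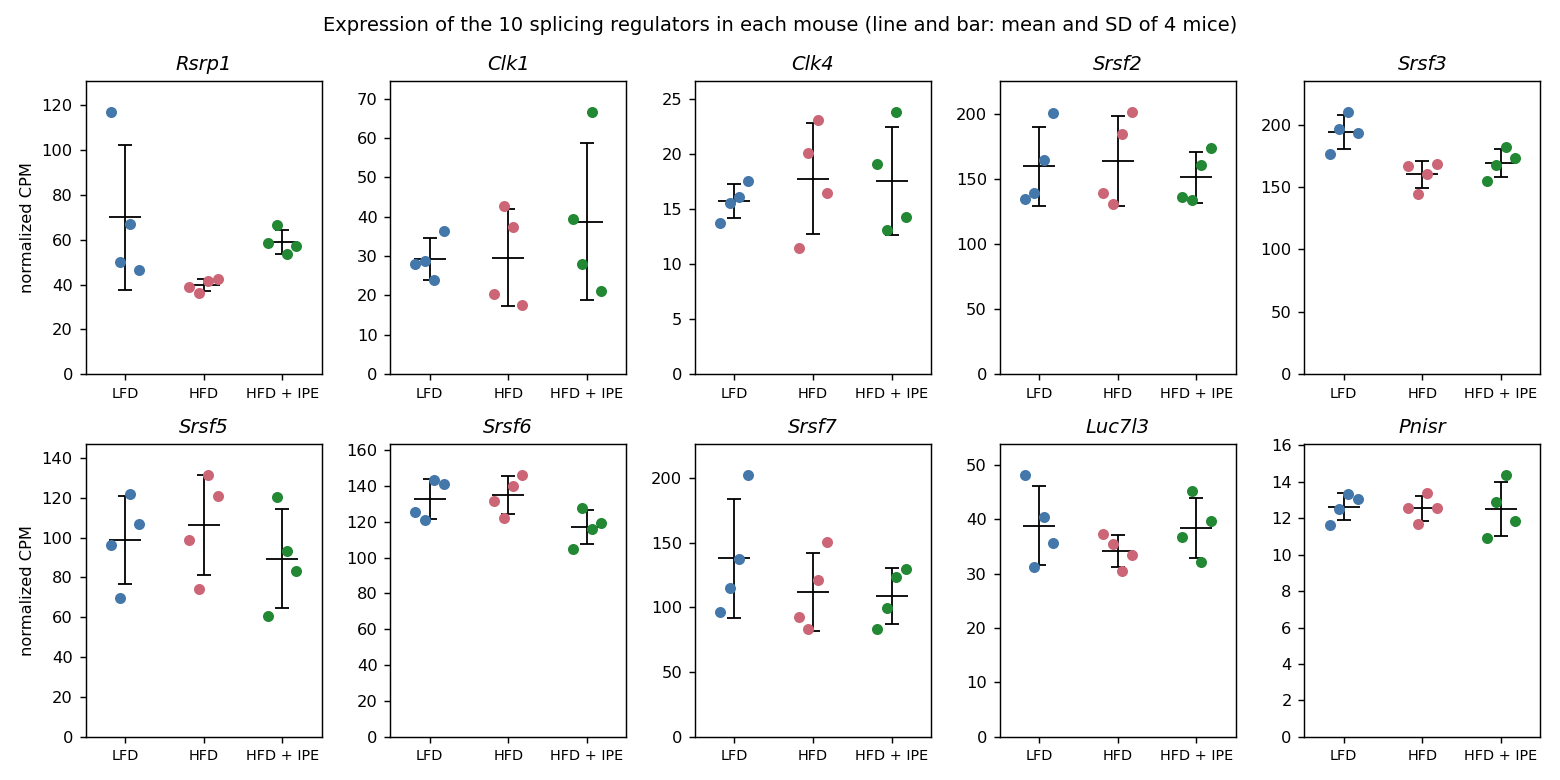
TMM-normalized CPM of the 10 genes in each of the 12 mice, by group, with points in the order of the mouse numbers and the mean and SD of 4 mice as line and bar; every vertical axis is linear and starts at 0. *Rsrp1* lies between 36.4 and 42.3 CPM in the HFD mice, below every LFD and every IPE mouse, and *Srsf3* lies below every LFD mouse in the HFD mice, while the groups of the other genes overlap in that comparison.

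The gene that defines the set, *Rsrp1* (ENSMUSG00000037266, chromosome 4, 134923592 to 134927671, plus strand, GRCm38), stood at 117, 50.0, 67.0, and 46.6 CPM in LFD mice 2, 5, 6, and 7. In HFD mice 1 to 4 it stood at 39.0, 36.4, 41.4, and 42.3 CPM, and in IPE mice 1 to 4 at 58.5, 66.5, 53.8, and 57.1 CPM. Every HFD mouse was thus below every mouse of both other groups, the HFD and IPE groups were tight, and the LFD group was wide because of mouse 2. The means were 70.2 ± 32.4 CPM in LFD, 39.8 ± 2.65 CPM in HFD, and 59.0 ± 5.36 CPM in IPE mice (SD, n = 4 each). These levels chose the gene and are given without a test.

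From HFD to IPE mice, *Rsrp1* differed by a log2 fold change of 0.57 (SE 0.092), which is 1.48-fold. Among all 15913 genes tested in that comparison, 0.484% had every IPE mouse above every HFD mouse, as *Rsrp1* had, and 0.66% every IPE mouse below. The choice of the gene fixed this, so nothing is read from it. Against the LFD mice, *Rsrp1* was at 0.560-fold in HFD mice (log2 fold change −0.84, SE 0.28) and at 0.841-fold in IPE mice (log2 fold change −0.25, SE 0.27). Without LFD mouse 2, the first became −0.46 and the second turned to 0.11. Both comparisons share the LFD mice, and the HFD mice enter the first comparison and the one that picked the gene.

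The chromaffin markers differed between the groups in the same direction as *Rsrp1*, and within groups the order of the mice was shared in part. All 12 chromaffin markers had a lower fitted level in HFD than in LFD mice, at a median of −1.28 (log2) with none past the threshold, and all 12 had a higher one in IPE than in HFD mice, with a median of 0.58. Within the LFD group, mice 2 and 6 had the highest sums, 19493 and 22617 CPM, and the highest *Rsrp1* levels. Mouse 6 had the higher sum and mouse 2 the higher *Rsrp1*, and mouse 7 was lowest and mouse 5 next in both. In the HFD group, mouse 2 was lowest in both, with a sum of 3095 CPM and *Rsrp1* at 36.4 CPM. Mouse 1 had the highest sum, 9998 CPM, with *Rsrp1* at 39.0 CPM. Mouse 4, with the highest *Rsrp1* of the group, had a sum of 3208 CPM. In the IPE group, mouse 3 had the highest sum, 10990 CPM, and the lowest *Rsrp1*. HFD mouse 1 also had a higher sum than LFD mouse 7 and IPE mouse 4, at 6417 and 5542 CPM, and a lower *Rsrp1* than both. The part of medullary tissue in the *Rsrp1* levels was not tested. Summed mesothelial markers were also uneven, at 27.6 and 20.5 CPM in IPE mice 1 and 2 against 2.51 to 8.88 CPM in the 8 LFD and HFD mice, and their part was not tested either. All 10 adrenocortical markers ran the other way from *Rsrp1*, none past the threshold. They were higher in HFD than in LFD mice (median 0.50, log2) and lower in IPE than in HFD mice (median −0.13). LFD mouse 2 had the lowest adrenocortical sum (49749 CPM) and the highest fibroblast and capsule sum (611 CPM) of the 12 mice. Within the HFD group, mice 3 and 4 had the most of both *Rsrp1* and adrenocortical markers. The part of these was not tested.

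The other 9 genes were tested in HFD against LFD mice for an effect of the diet, with the edgeR quasi-likelihood test and Benjamini-Hochberg adjustment over all 15909 genes. None of the 9 passed an adjusted p of 0.05, which 1.45% of all genes did (0.974% higher and 0.471% lower), and 1 of them, *Srsf3*, had an unadjusted p below 0.05, beside 3949 of all genes (24.8%). By DESeq2, which called 2019 genes in all against 230 by edgeR, 1 of the 9 passed, again *Srsf3*. The median log2 fold change of the 10 genes was −0.004, beside −0.01 over all genes, with 5 positive and 5 negative. The median and the counts include *Rsrp1*, at −0.84, which was chosen by its levels.

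*Srsf3* (chromosome 17, 29032628 to 29043373, plus strand) encodes the smallest SR protein, which takes part in splicing, polyadenylation site choice, and mRNA export. It stood at 176, 196, 210, and 193 CPM in LFD mice 2, 5, 6, and 7, and at 167, 145, 160, and 168 CPM in HFD mice 1 to 4. In IPE mice 1 to 4 it stood at 155, 167, 182, and 173 CPM. All 4 HFD mice were below all 4 LFD mice, and 3 of the 4 IPE mice were. The fitted log2 fold change in HFD against LFD mice was −0.29 (SE 0.081), or 0.820-fold, with an adjusted p of 0.0894 by edgeR and 0.0373 by DESeq2. Of the 9 genes, *Srsf3* was the only one whose HFD and LFD mice did not overlap, and 5.82% of all genes tested were lower and 7.71% higher in that way. The SD of *Srsf3* within groups was 0.10 on the log2 scale, against a median of 0.28 over 16262 genes. The summed macrophage markers did not overlap between the same groups either. Their sum was 724 to 1085 CPM in LFD and 506 to 612 CPM in HFD mice, and *C1qa*, *C1qc*, *Cd68*, and *Lyz2* fell among 9 tested. Their log2 fold changes were −0.74 (SE 0.11), −0.80 (SE 0.12), −1.25 (SE 0.17), and −0.96 (SE 0.16), with adjusted p of 0.0376 to 0.0398 by edgeR. None of these 4 passed when any 1 of LFD mice 5, 6, and 7 or HFD mice 2, 3, and 4 was left out. The other 5 did not pass, and *Cd163* and *Mrc1* had positive values, 0.11 and 0.24. The part of these markers in the *Srsf3* values was not tested.

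**Figure D2:**
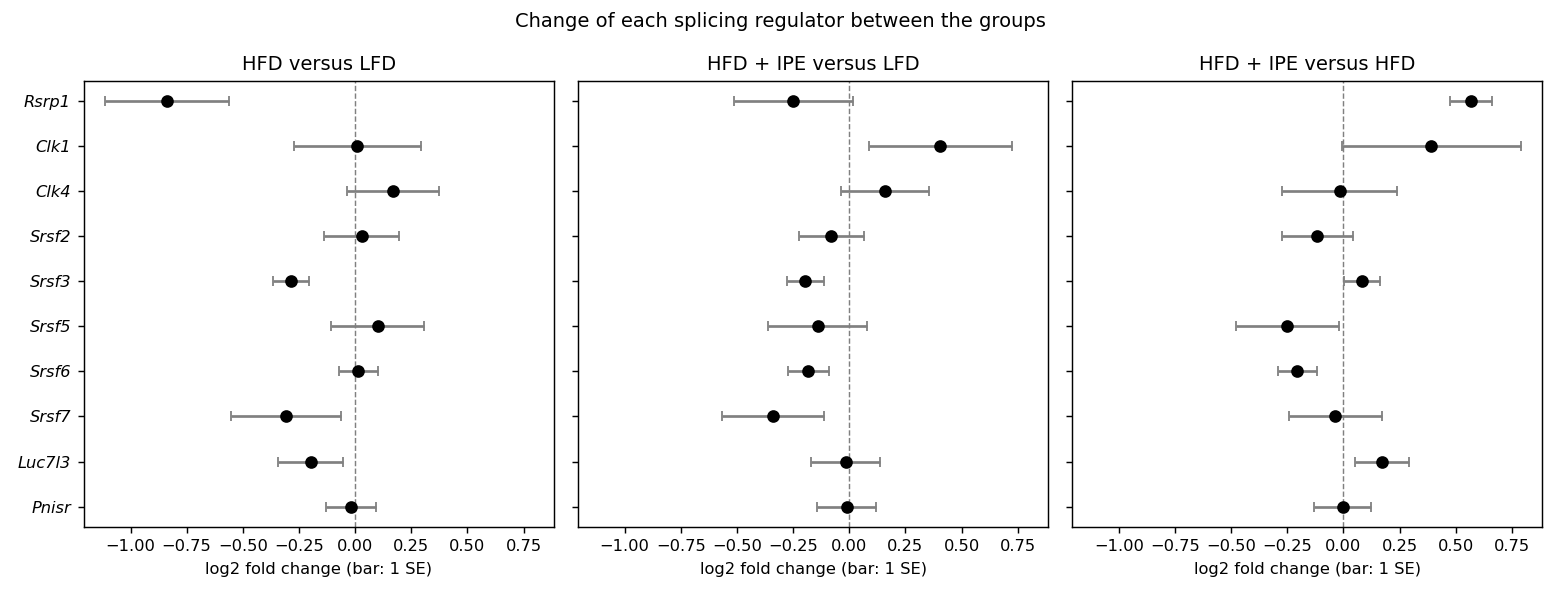
Fitted log2 fold change of the 10 genes (rows) in HFD versus LFD, HFD with IPE versus LFD, and HFD with IPE versus HFD mice (panels), with bars of 1 SE and a dashed line at no difference. *Rsrp1* stands at −0.84 in the first panel and at 0.57 in the last, and the SE bars of *Clk1*, at 0.28 to 0.40, are the widest of the 9 other genes.

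The HFD and LFD mice overlapped for the other SR protein genes. *Srsf6*, whose protein regulates exon choice in transcripts such as that of tau, stood at 126, 121, 143, and 141 CPM in LFD mice 2, 5, 6, and 7, at 132, 122, 140, and 146 CPM in HFD mice 1 to 4, and at 105, 128, 116, and 119 CPM in IPE mice 1 to 4. LFD and HFD mice covered the same range, and 3 of the 4 IPE mice lay below both. Its log2 fold change was 0.01 (SE 0.086, adjusted p = 0.936 by edgeR) in HFD against LFD mice. Between IPE and HFD mice, the contrast that was used to pick *Rsrp1*, it differed by −0.21 (SE 0.087), and no test is given.

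*Srsf2* encodes SC35, the protein long used as a marker of speckles. It ranged from 134 to 201 CPM in LFD mice, from 131 to 201 CPM in HFD mice, and from 134 to 174 CPM in IPE mice, so that the groups overlapped over most of their range. *Srsf7*, whose protein also carries a zinc knuckle and binds the export receptor NXF1, ranged from 96.6 to 202 CPM in LFD, from 83.4 to 151 CPM in HFD, and from 83.4 to 130 CPM in IPE mice. The log2 fold change of *Srsf7* in HFD against LFD mice, −0.31, was as large as that of *Srsf3*, but its SE was 0.24 and its adjusted p 0.465 by edgeR. For *Srsf5*, whose transcript is known to respond to insulin in liver cells, LFD mice ranged from 69.4 to 122 CPM, HFD mice from 74.4 to 131 CPM, and IPE mice from 60.4 to 120 CPM. *Srsf2* and *Srsf5* differed between HFD and LFD mice by 0.03 (SE 0.17) and 0.10 (SE 0.21), with adjusted p of 0.937 and 0.805 by edgeR.

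The kinase gene *Clk1* varied most from mouse to mouse. It stood at 28.0, 28.8, 23.9, and 36.5 CPM in LFD mice 2, 5, 6, and 7. In HFD mice 1 to 4 it stood at 20.5, 42.8, 37.4, and 17.7 CPM, and in IPE mice 1 to 4 at 39.4, 28.0, 66.5, and 21.2 CPM. HFD mice split to either side of the LFD range, and IPE mouse 3 was the highest of all 12. The within-group SD of *Clk1* was 0.57 on the log2 scale, above that of 83.7% of genes. *Clk4*, its closest paralog here, ranged from 13.7 to 17.5 CPM in LFD mice, from 11.4 to 23.1 CPM in HFD mice, and from 13.04 to 23.8 CPM in IPE mice. Their log2 fold changes in HFD against LFD mice were 0.01 (SE 0.28) and 0.17 (SE 0.20), with adjusted p of 0.989 and 0.649 by edgeR.

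For *Luc7l3*, the LFD mice 2, 5, 6, and 7 stood at 48.1, 31.2, 40.4, and 35.7 CPM, the HFD mice 1 to 4 at 37.2, 35.4, 30.5, and 33.5 CPM, and the IPE mice 1 to 4 at 36.7, 45.2, 32.1, and 39.7 CPM. LFD mouse 2 and IPE mouse 2 were the highest of their groups, as they were for *Rsrp1*, and the groups overlapped. *Luc7l3* differed between HFD and LFD mice by −0.20 (SE 0.14, adjusted p = 0.427 by edgeR) and between IPE and HFD mice by 0.17 (SE 0.12, no test). *Pnisr* was the steadiest of the low genes, from 11.6 to 13.3 CPM in LFD, from 11.7 to 13.4 CPM in HFD, and from 10.9 to 14.4 CPM in IPE mice, and differed by −0.02 (log2, SE 0.11, adjusted p = 0.943 by edgeR) between HFD and LFD mice.

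Icosapent ethyl–treated mice were also compared with the LFD mice, which serve as well in the comparison above. By edgeR, none of the 9 genes passed, and 0 of all 15935 genes did (0%). Of the 9, 1 gene and, of all genes, 2225 (14%) had an unadjusted p below 0.05, and DESeq2 called 471, none of the 9 among them. In none of the 10 genes were the groups apart, against 4.04% of all genes higher and 3.69% lower. *Srsf3* again had the lowest p, at −0.20 on the log2 scale (SE 0.084, adjusted p = 0.349 by edgeR). *Srsf7* differed by −0.34 (SE 0.23, adjusted p = 0.511 by edgeR) and *Srsf6* by −0.18 (SE 0.092, adjusted p = 0.399 by edgeR). *Clk1* differed by 0.41, with an SE of 0.32, and by 0.0145 without IPE mouse 3. The median of the 10 was −0.11, beside −0.004 over all genes, and 8 of the 10 were negative, *Rsrp1*, chosen by its levels, among them at −0.25. Without IPE mouse 1 that median was −0.013, and without LFD mouse 6 or 7 it was −0.0448 or −0.0709.

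Between IPE and HFD mice, 0 of all 15913 genes passed by edgeR (0%, with 221, or 1.39%, at an unadjusted p below 0.05) and 6 by DESeq2. That is a smaller share than a threshold of 0.05 would give with no difference in any gene. The count of 0 is therefore not read as the absence of an effect. The values of the 10 genes in this contrast are a description. *Rsrp1* was the only one of the 10 whose groups did not overlap, and the median log2 fold change of the 10 was −0.01 beside 0.004 over all genes. *Clk1* stood at 0.39, with an SE of 0.40, at 0.0039 without IPE mouse 3, and at up to 0.62 with another mouse left out. *Srsf5* had the lowest value, −0.25, with an SE of 0.23.

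The spread within groups was also compared between the genes. For each gene, the deviation of each mouse from its group mean was taken on the log2 CPM scale, and all 45 pairs of genes were correlated over the 12 mice, with exact permutation of the mice within groups (13824 arrangements). This step was added after the values had been seen. The mice of a correlation share libraries and their scaling. Because the levels of *Rsrp1* chose it, its 9 pairs are given as r and rho with no p. Of the other 36 pairs, 8 had a permutation p below 0.05, and 2 passed 0.05 after Benjamini-Hochberg adjustment over all 45. The share over pairs of all genes was not computed, so these counts are not read as particular to the splicing regulators. Of 13472 genes ranked by r, 20.4% were at least as near to *Srsf2* as *Srsf6* (r = 0.68, or 0.06 with library totals), 1 of the 8 pairs. At least as near as *Srsf7* (r = 0.96) were 0.156%.

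**Figure D3:**
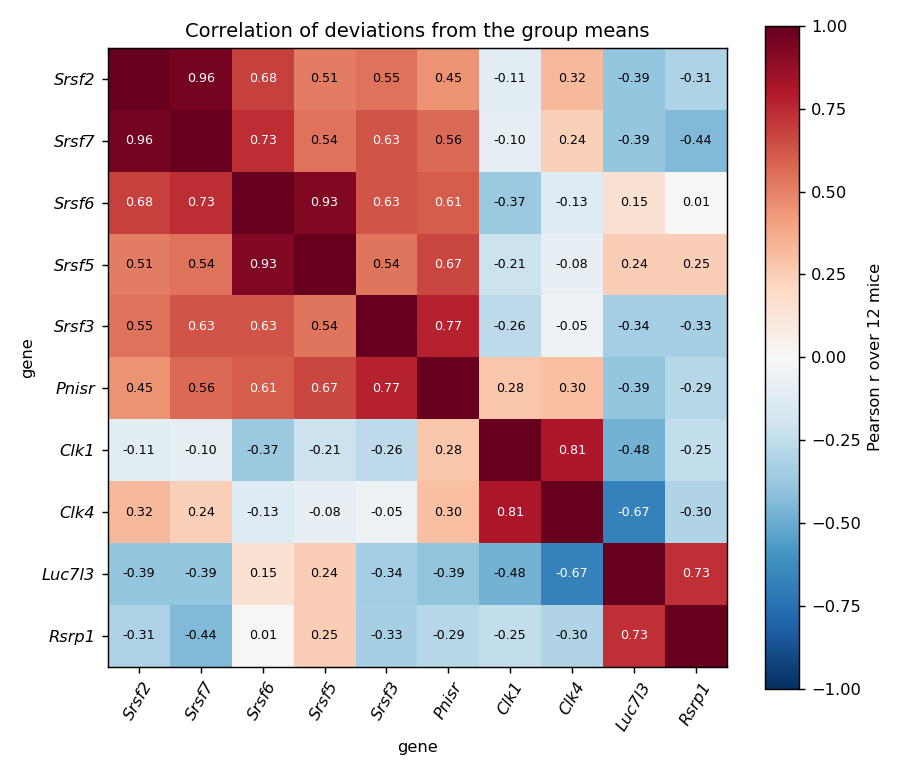
Pearson r of the deviations from the group means on the log2 CPM scale for each pair of the 10 genes over 12 mice (rows and columns are genes, colour from −1 to 1). The strongest cells are *Srsf2* with *Srsf7* at 0.96 and *Srsf5* with *Srsf6* at 0.93. *Clk1* with *Clk4* is at 0.81, and *Luc7l3* with *Rsrp1* at 0.73. *Srsf2* with *Srsf6* and *Srsf6* with *Srsf7*, at 0.68 and 0.73, were at 0.06 and 0.10 with library totals in place of TMM scaling.

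*Srsf2* and *Srsf7* moved together, with r = 0.96 (exact permutation p = 0.000145, adjusted p = 0.00651) and Spearman's rho = 0.944 (exact permutation p = 0.000217, adjusted p = 0.00977). In 12 of 12 mice both genes lay on the same side of their group mean. LFD mice 2 and 5, HFD mice 1 and 2, and IPE mice 1 and 2 were low for both, and LFD mice 6 and 7, HFD mice 3 and 4, and IPE mice 3 and 4 were high for both. *Srsf7* spanned more, from −0.46 to 0.61 against −0.30 to 0.35 for *Srsf2*. Without the 2 mice farthest from the median in *Srsf2*, r was 0.93, and with any 1 mouse left out it lay between 0.95 and 0.97. Of 13472 genes ranked by r, *Srsf7* stood at rank 21 for *Srsf2*, and *Srsf2* at rank 6 for *Srsf7*. The summed adrenocortical markers sorted the mice the same way. They were 49749, 57475, 60878, and 79767 CPM in LFD mice 2, 5, 6, and 7, then 62391, 78652, 111451, and 107937 CPM in HFD mice 1 to 4, and 78528, 65711, 84576, and 103204 CPM in IPE mice 1 to 4, so that the 2 higher mice of each group were the 2 with more *Srsf2* and *Srsf7*. Other sums split the mice in the same way. These were the other SR protein, SR-related and speckle, SR kinase, hnRNP, and nonsense-mediated decay genes listed below. The hnRNP sums were 3869 and 4313 CPM in LFD mice 2 and 5 against 4615 and 5128 CPM in LFD mice 6 and 7. TMM factors were lower in the 2 higher mice of each group. In HFD mice 3 and 4 they were 0.883 and 0.8985, against 1.07 and 1.002 in HFD mice 1 and 2. The part of all these sums and factors in the correlation was not tested.

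*Srsf5* and *Srsf6* formed the other pair, with r = 0.93 (exact permutation p = 0.000506, adjusted p = 0.0114) and rho = 0.916 (exact permutation p = 0.00203, adjusted p = 0.0456), on the same side in 10 of 12 mice. Of the same 13472 genes, *Srsf6* stood at rank 2 for *Srsf5*, and *Srsf5* at rank 4 for *Srsf6*. The lowest mice for both were LFD mouse 5, HFD mouse 2, and IPE mouse 1. *Srsf5* swung far more than *Srsf6*, from −0.52 to 0.47 against −0.15 to 0.13 on the log2 scale. Without the 2 mice farthest from the median in *Srsf5*, r was 0.87. With library totals in place of TMM scaling, r was 0.83 and the adjusted p 0.0597, and without LFD mouse 6 or HFD mouse 2 the adjusted p was 0.0586 or 0.0521, so this pair depends on these choices for its call.

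**Figure D4:**
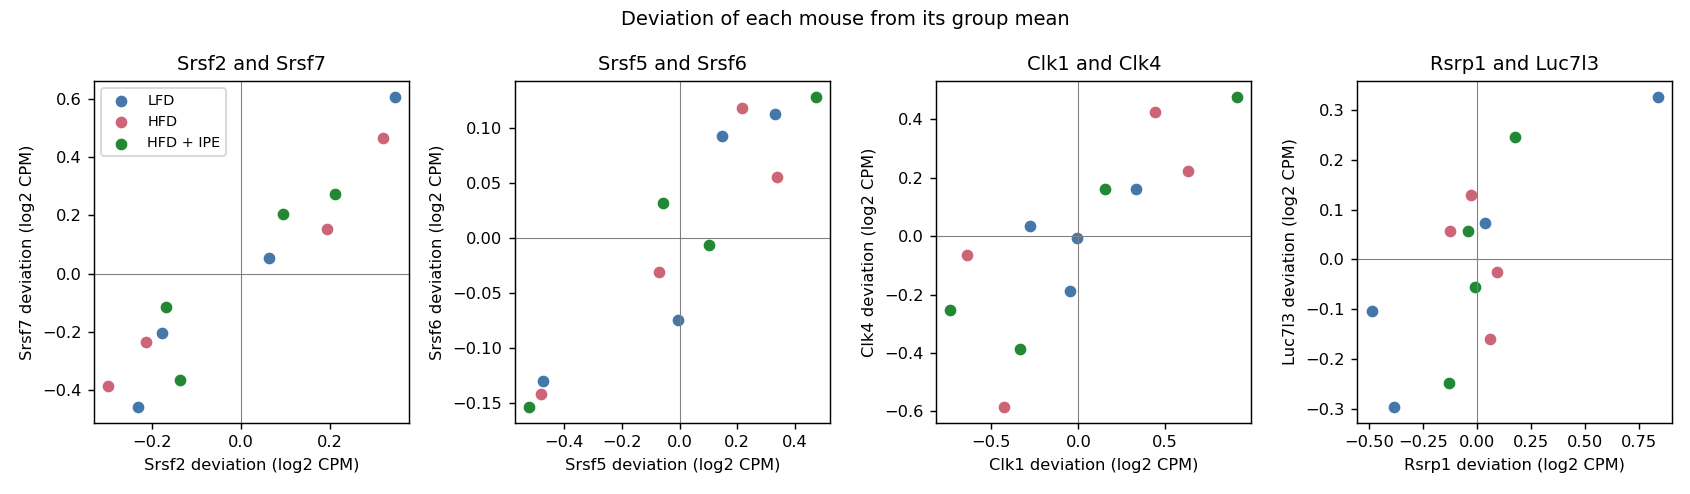
Deviation of each of the 12 mice from its group mean (log2 CPM, both axes, each panel with its own range) for 4 pairs of genes, coloured by group. *Srsf2* and *Srsf7* lie on the same side of 0 in 12 of 12 mice and *Srsf5* and *Srsf6* in 10 of 12, *Clk1* and *Clk4* in 11 of 12, and *Rsrp1* and *Luc7l3* in 7 of 12, where LFD mouse 2 is the point at the far right.

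Pairs below the adjusted threshold are given as values. *Clk1* and *Clk4* had r = 0.81 (exact permutation p = 0.0187, adjusted p = 0.147) and rho = 0.888 (exact permutation p = 0.00977, adjusted p = 0.109), and lay on the same side in 11 of 12 mice. *Srsf3* and *Pnisr* had r = 0.77 (exact permutation p = 0.00752, adjusted p = 0.0846) and rho = 0.615 (exact permutation p = 0.0591, adjusted p = 0.242). *Clk4* and *Luc7l3* ran opposite, with r = −0.67 (exact permutation p = 0.00477, adjusted p = 0.0716) and rho = −0.706 (exact permutation p = 0.00897, adjusted p = 0.109). As a description, *Rsrp1* and *Luc7l3* had r = 0.73 and rho = 0.643, and r was 0.67 without the 2 mice farthest in *Rsrp1*. Some values rested on the scaling. With library totals, *Srsf6* with *Srsf7* went from 0.73 to 0.10 and *Srsf2* with *Srsf6* from 0.68 to 0.06. *Srsf2* with *Srsf3* went from 0.55 to −0.21, and *Srsf3* with *Srsf7* from 0.63 to −0.11. Others held, such as *Srsf2* with *Srsf7* at 0.94 and *Clk1* with *Clk4* at 0.85.

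Likeness to *Rsrp1* was also ranked over all genes with a mean of at least 1 CPM, by Pearson r of log2 CPM over the 12 mice, as a description. Of 13472 genes, the 10 nearest were *Gm7160* (0.93), *Camta1* (0.90), *Rpl22l1* (0.89), *Shld1* (0.88), *Mrpl27* (0.87), *1500011B03Rik* (0.87), *2610306M01Rik* (0.86), *Gm26384* (0.85), *Gm9843* (0.85), and *Imp3* (0.85). *Rpl22l1*, a ribosomal protein paralog, stood at 88.8 ± 16.0 CPM in LFD, 69.0 ± 7.58 CPM in HFD, and 79.6 ± 4.77 CPM in IPE mice (SD, n = 4 each). *Gm7160* had only 43 to 152 counts. Toward the other end were the chaperone gene *Bag6* (−0.94) and the mitochondrial DNA polymerase gene *Polg* (−0.94). *Bag6* stood at 287 ± 49.9 CPM in LFD, 342 ± 15.04 CPM in HFD, and 304 ± 23.4 CPM in IPE mice (SD, n = 4 each), the reverse of the order of *Rsrp1*. Among the 9 splicing regulators, *Luc7l3* was nearest to *Rsrp1*, with r = 0.76 at rank 138, and the others lay between −0.31 and 0.34. Without LFD mouse 2, 3 of the 10 nearest genes were still among the 10, and *Luc7l3* had r = 0.58.

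The remaining splicing genes were looked at as lists, by the counts past the edgeR threshold. In HFD against LFD mice none passed of 8 other SR protein genes, 20 genes of SR-related and speckle proteins, 10 other kinases of SR proteins, 5 genes of the U1 snRNP and its LUC7-like partners, 22 core spliceosome genes, 21 hnRNP genes, and 14 genes of nonsense-mediated decay. In the same order, 1, 5, 1, 0, 4, 2, and 1 of them had an unadjusted p below 0.05, which 24.8% of all genes had. DESeq2 called 1, 3, 0, 0, 1, 0, and 0, beside 2019 of all 15909 genes. Their median log2 fold changes lay between −0.07 and 0.12. The summed core spliceosome genes did not overlap, at 2116 to 2203 CPM in LFD and 2251 to 2285 CPM in HFD mice. Of these 22 genes, 12 had a positive and 10 a negative log2 fold change, and the sum was not tested. The sums of the other lists overlapped between LFD and HFD mice. *Srsf1*, the archetype of the family, was at 148 ± 11.5, 155 ± 4.98, and 147 ± 7.55 CPM in LFD, HFD, and IPE mice (SD, n = 4 each), and *Luc7l2*, the paralog of *Luc7l3*, at 89.6 ± 3.83, 102 ± 7.54, and 101.2 ± 8.43 CPM. The lowly expressed *Srsf12*, with 2.09 ± 0.744 CPM in LFD mice and 0.844 ± 0.547 CPM in HFD mice, differed most among the other SR genes (−1.32 on the log2 scale, SE 0.47, adjusted p = 0.141 by edgeR). These 3 genes were chosen after their values were seen.

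Further lists held genes known to respond to stress or cell state. Of 15 nuclear and snoRNA host RNAs none passed by edgeR in HFD against LFD mice (4 with an unadjusted p below 0.05, beside 24.8% of all genes, and 1 by DESeq2). Of 13 immediate-early genes none passed by edgeR. An unadjusted p below 0.05 was found for 8 of them, beside 24.8% of all genes, and 4 passed by DESeq2, beside 2019 of all 15909. Both shares of these 13 genes were above those over all genes. Their median was 1.18 on the log2 scale, and their sum was 6229 and 7029 CPM in HFD mice 1 and 2 but 1642 and 1196 CPM in HFD mice 3 and 4, inside the LFD range of 738.5 to 3217 CPM. Of 12 genes of the cold and heat response, *Hspb1*, a small heat shock protein gene, fell. It stood at 328 ± 42.2 CPM in LFD mice and at 230 ± 9.59 CPM in HFD mice, a difference of −0.52 on the log2 scale (SE 0.096, adjusted p = 0.0437 by edgeR). With DESeq2's size factors its adjusted p was 0.0555, and with 1 of LFD mice 5, 6, and 7 or HFD mice 2, 3, and 4 left out it was between 0.0771 and 0.137. No gene of any of these 10 lists passed by edgeR in either comparison with IPE mice. Against LFD mice, the IPE mice had 2 SR-related genes, 1 gene of the cold and heat response, and 4 immediate-early genes past the threshold by DESeq2. Of all 15935 genes, 471 passed by DESeq2. At most 7 genes of a list, the immediate-early genes, had an unadjusted p below 0.05 by edgeR, beside 14% of all genes. Against HFD mice, the IPE mice had 0 by DESeq2 and at most 2 genes of a list at an unadjusted p below 0.05, beside 1.39% of all genes.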

How the data were processed

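The authors prepared strand-specific total RNA libraries, trimmed adaptors with cutadapt, aligned reads to GRCm38 with STAR, counted them per GENCODE M12 gene with HTSeq 0.6.1p1 in reverse-strand mode, and deposited raw counts, 1 file per mouse. Symbols and coordinates were taken from GENCODE M21. Groups came from the labels. Differential expression was computed with edgeR 4.0.16 in R 4.3.3 (TMM, filterByExpr at a minimum count of 10, robust quasi-likelihood test, Benjamini-Hochberg adjustment over all genes, threshold 0.05), with only the mice of both groups in each fit and no covariates. Log2 CPM used a prior count of 2. Each log2 fold change is the first group named minus the second. Of 66 pairs of libraries, none was a copy (lowest chi-square per degree of freedom 26.5).

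The genes, lists, and tests were chosen with earlier results of these data known. Named genes were the 10 regulators, the 10 genes most and the 3 least like *Rsrp1* (1 of these is not reported here), up to 4 genes per list past the threshold, and genes that check the labels. HFD and IPE mice share the numbers 1 to 4. After subtracting group means, mice with the same number correlated at 0.24, 0.116, 0.34, and 0.632, each above 0.1, so a block on the number was fitted. The labels do not say what the number marks, and HFD mouse 1 with IPE mouse 2 reached 0.598. Alternatives were DESeq2 1.42.0, its size factors, library totals, other count filters, all 12 mice in 1 fit, a threshold of 0.1, and leaving out each mouse. The scripts were tested on simulated data. In *Srsf2*, 460 and 288 of 2958 exon bases overlap *Mettl23* and *Mfsd11* on the opposite strand, and in *Clk4*, 59 of 5797 overlap *Gm25082* on the same strand.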

Additional observations from a re-analysis of the deposited data

How the results depend on the processing

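Each of the 10 genes had at least 411 counts in each mouse, and each group had 4 mice. Depth and the number of mice were not compared as limits. Over all genes, HFD and LFD mice differed in 230 as reported, and this count was 1396 at a threshold of 0.1, 2019 by DESeq2, 84 with library totals, and 556 with all 12 mice in 1 fit, and ranged from 0 to 918 when 1 mouse was left out (918 without HFD mouse 1, 78 without LFD mouse 2, and 0 without each of the other 6). The count of the 9 splicing regulators past it was 1 (*Srsf3*) at 0.1 and by DESeq2, and 0 under every other setting run. Without LFD mouse 5, 6, or 7 or HFD mouse 2, 3, or 4, *Hspb1*, *Cd68*, *C1qa*, *C1qc*, and *Lyz2* were not past the threshold, nor was *Hspb1* with DESeq2's size factors (adjusted p = 0.0555 by edgeR). In IPE versus LFD mice, 471 genes passed by DESeq2, 2 with all 12 mice in 1 fit, and 0 to 1 with 1 mouse left out (1 without IPE mouse 2). In IPE versus HFD mice, 6 passed by DESeq2.

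Small fold changes changed sign. With library totals, which moved the median of all genes in HFD versus LFD mice from −0.01 to −0.11, *Clk1* was at −0.0912, *Srsf2* at −0.0777, *Srsf5* at −0.0113, and *Srsf6* at −0.0860. With 1 mouse left out, the log2 fold changes in HFD versus LFD mice ranged from −0.22 to 0.19 for *Clk1*, from −0.0831 to 0.15 for *Srsf2*, from −0.0366 to 0.24 for *Srsf5*, from −0.0280 to 0.0612 for *Srsf6*, and from −0.0458 to 0.0166 for *Pnisr*. In IPE versus LFD mice they ranged from −0.11 to 0.10 for *Luc7l3*, from −0.0813 to 0.0487 for *Pnisr*, from −0.15 to 0.0531 for *Srsf2*, from −0.32 to 0.00733 for *Srsf5*, and from −0.0191 to 0.28 for *Clk4*. The median of the 10 regulators in IPE versus LFD mice ranged from −0.16 to −0.013, and *Clk1* from 0.0145 to 0.61 there and from 0.0039 to 0.62 in IPE versus HFD mice. The cause of these changes was not tested.

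With the replicate block in IPE versus HFD mice, 0 genes passed, as without it, *Rsrp1* was at 0.57, and the median of the 10 regulators was −0.01, so the pairing changed no call. The block did change the fit by edgeR. Genes at an unadjusted p below 0.05 went from 221 to 696, and the lowest adjusted p from 0.9997 to 0.487. Of the 10 genes most like *Rsrp1*, 4 were shared with a ranking by Spearman's rho, 2 with a ranking by deviations from group means, 3 with library totals, and 3 without LFD mouse 2. The count of correlated pairs, 2 as reported, was 1 with library totals and between 1 and 3 with 1 mouse left out (1 without LFD mouse 6 or HFD mouse 2).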
